A study of Mus musculus with 2 samples.

Results

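Capillary endothelial cells of the mouse heart were described from single-cell RNA counts of 2 libraries. A barcode was taken as capillary when it held at least 500 genes and at most 10% mitochondrial UMIs (molecules counted once each), at least 4 UMIs of the endothelial genes Pecam1, Cdh5, Egfl7 and Cldn5, more of these than of the fibroblast genes Pdgfra, Dcn, Col1a1 and Col3a1, a UMI in at least 3 of Car4, Timp4, Rgcc, Cd300lg and Aqp7, and no UMI of Hey1, Gja5, Stmn2, Nr2f2, Vwf or Apln, which mark arterial, venous and tip-like endothelium. Of 10427 barcodes, 9092 passed the limits on genes and mitochondrial UMIs, 6235 of these were endothelial and 1634 were capillary. The db/db and salt library gave 765 capillary barcodes and the db/+ library 869. The members were chosen by their own RNA, so the values of the genes in the rule describe the choice and support nothing else.

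The first group was 1 library from hearts of db/db mice, which carry the mutated leptin receptor gene Lepr on both copies and are known to become obese and diabetic, given 1% salt. The control group was 1 library from hearts of db/+ mice, which carry a single mutated copy. No salt treatment is named for them. Each genotype was represented by 4 male hearts, and no barcode is tied to an animal. The labels give no age, strain or hour of collection. Cells of both libraries came from digested hearts in which cardiomyocytes and CD45-positive leukocytes had been depleted. Effects of genotype, salt and library cannot be told apart. With 1 library per group there is no test, and cells of 1 library are not replicates, so no p-value is given.

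Capillaries are the exchange vessels of the heart, and their endothelium takes fatty acids from lipoproteins in the blood and passes them to the muscle. Lipoprotein lipase works on the capillary surface, held there by Gpihbp1, and Cd36, Fabp4 and Fabp5 carry the freed fatty acids. Endothelial cells also answer interferons: signals from the receptors reach STAT and IRF factors, which bind short promoter motifs and switch on antigen presentation genes, guanylate-binding proteins (GBP), immunity-related GTPases (IRG) and antiviral genes.

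Levels are UMI sums over the barcodes of a class in a library, given as CPM, the UMIs of a gene scaled to a common total, with exact Poisson 95% intervals that cover counting error only. The log2 ratio is that of CPM plus 10 in db/db and salt over CPM plus 10 in db/+, which understates the ratio of low genes. A gene counted as measured with a mean of at least 10 CPM, and as higher or lower past 1.5-fold on this scale. The capillary barcodes held 4054924 UMIs in the db/db and salt library and 4487822 in the db/+ library. Their medians were 4247 and 4087 UMIs and 1918 and 1844 genes per barcode. The other endothelial barcodes were deeper, with medians of 6796.5 and 6846 UMIs. Of the shallowest endothelial barcodes, with up to 3565 UMIs, 42.1% were capillary in db/db and salt and 39.4% in db/+, and of the deepest, above 10635 UMIs, 8.93% and 8.09%, so the absence of excluded genes went with shallow depth. The libraries shared 7 barcodes by sequence, and 0 of them were capillary in both. Scrublet marked 0 capillary barcodes as doublets. It marked 1.21% of kept barcodes in db/db and salt and 1.29% in db/+, under the expected 3.3 and 4.0%, so unmarked doublets may remain. Without barcodes of 3 or more mural (pericyte and smooth muscle) marker UMIs, 743 and 848 capillary barcodes were left. Without those of 3 or more leukocyte marker UMIs, 760 and 868 were left. Lepr had 0 UMIs in capillary barcodes of either library, and counts of transcript ends do not read the db mutation.

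Capillary barcodes made up 27.0% of the endothelial barcodes in db/db and salt (765 of 2833, Clopper-Pearson 95% interval 25.4 to 28.7%) and 25.5% in db/+ (869 of 3402, 24.1 to 27.0%). With every barcode thinned to 1500 UMIs before the rule was read, the shares were 34.1% (32.2 to 36.0%) and 32.2% (30.5 to 34.0%). The intervals of the libraries overlapped both ways, and the digestion, the strainers and the depletion steps can act on these shares. At least 3 capillary markers were found in 85.8% of endothelial barcodes in db/db and salt and 82.3% in db/+. Among these, a UMI of Stmn2 was found in 43.8% in db/db and salt and in 34.4% in db/+, one of Hey1 in 30.7 and 31.8%, one of Nr2f2 in 21.3 and 24.3%, and one of Apln in 11.9 and 18.8%. Just inside the rule lay 159 and 208 barcodes with exactly 3 markers, and just outside it 73 and 93 with 2 markers and 373 and 493 with a single UMI of an excluded gene, in db/db and salt and in db/+ in that order.

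The label was checked with genes the rule did not read. All 17 further capillary genes on the list were measured, and their median log2 ratio of capillary over other endothelial barcodes was 0.33 in the db/db and salt library and 0.37 in the db/+ library, against -0.03 and -0.04 over all genes. Fabp4, a fatty acid chaperone, stood at 26219.7 CPM in capillary against 20606 CPM in other endothelial barcodes of db/db and salt, and at 24978 against 19986 CPM in db/+. Gpihbp1 stood at 2314 and 2243 CPM in the capillary barcodes of db/db and salt and of db/+. Summed markers of pericytes and endocardial cells were low. Pericyte markers came to 185 CPM in db/db and salt and 195 in db/+, against 1599 and 1691 CPM in the other endothelial barcodes. Endocardial markers came to 26.4 and 21.2 CPM, against 174 and 90.6 CPM. Not all foreign markers were set apart in this way. Fibroblast markers outside the rule came to 322 and 260 CPM, against 375 and 302 CPM in the other endothelial barcodes. Cardiomyocyte markers came to 92.2 and 108 CPM, against 122 and 129 CPM, and erythroid markers to 2235 and 3408 CPM, against 2511 and 3363 CPM. Arterial genes outside the rule had median log2 ratios of capillary over other endothelial barcodes of -0.64 in db/db and salt and -1.15 in db/+. For venous genes outside the rule these medians were -1.87 and -1.47. The 12 tip-like genes outside the rule were not set apart, with medians of 0.006 and -0.21 and 1 gene lower in both libraries. The 5 adipocyte markers were at 0 in both capillary sums. The plot of capillary genes shows these levels side by side.

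**Figure D1:**
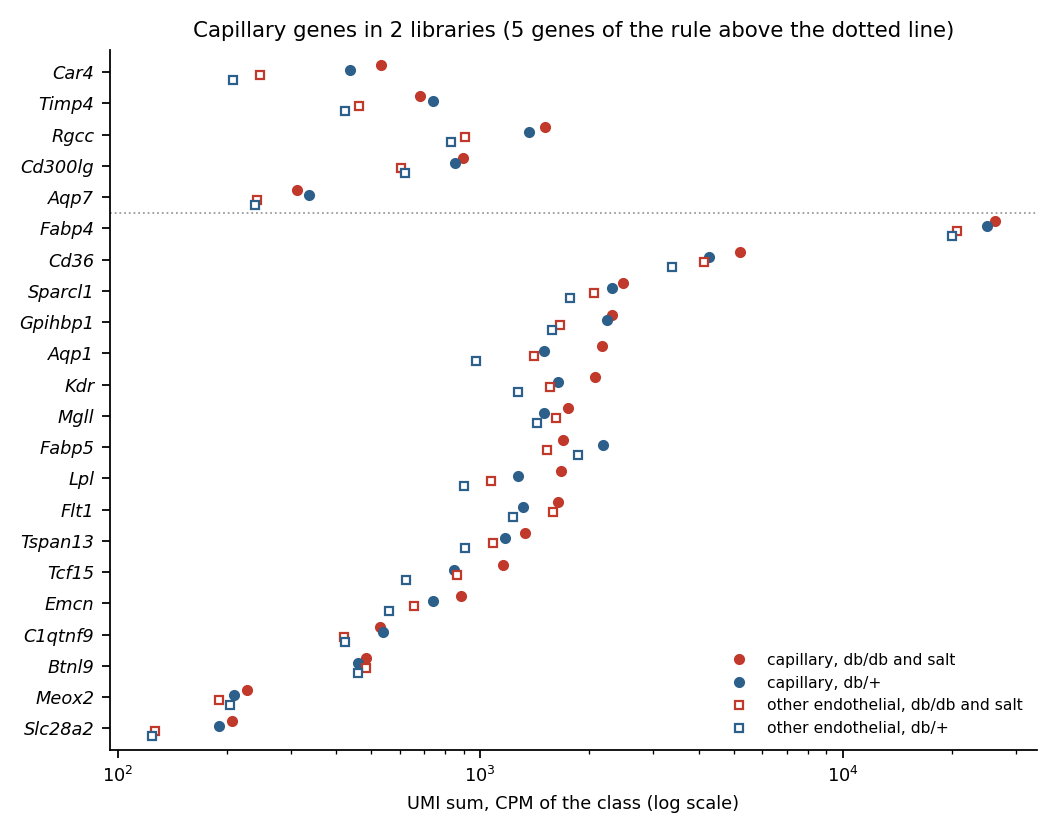
Levels of the 5 marker genes of the rule (above the dotted line) and of 17 further capillary genes, as CPM of the UMI sum on a log scale, in capillary barcodes (filled circles) and other endothelial barcodes (open squares) of db/db and salt (red) and db/+ (blue). Fabp4 leads at 26219.7 CPM in capillary barcodes of db/db and salt and 24978 CPM in those of db/+, and Aqp1 is above its db/+ level in both classes of db/db and salt.

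The 5 markers of the rule were present at like levels in both libraries. Rgcc, a regulator of the cell cycle that complement induces, led at 1511 CPM in db/db and salt and 1363 CPM in db/+. Cd300lg, a surface glycoprotein of small vessels, had 899 and 851 CPM, and Timp4, an inhibitor of metalloproteinases, 682 and 739 CPM. Car4, a carbonic anhydrase of the outer membrane, had 531 CPM (509 to 554) in db/db and salt and 437 CPM (418 to 457) in db/+, and Aqp7, a channel for water and glycerol, 313 and 336 CPM. At 1500 UMIs per barcode, Car4 was found in 49.1% and 47.1% of capillary barcodes, in 25.5% and 22.0% of other endothelial barcodes, and in 1.15% and 1.45% of barcodes with fibroblast markers, which should lack it. Rgcc had a UMI in 97.0% of the capillary barcodes of db/db and salt and 96.7% of those of db/+, and Aqp7 in 69.9% and 73.5%.

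Between the libraries, 8100 genes were measured in capillary barcodes. Of these, 65 (0.802%) were higher and 131 (1.62%) lower in db/db and salt, and the median over all measured genes was 0.05. With TMM scaling the split was 48 higher and 164 lower, and with median-of-ratios factors 33 and 130. In the other endothelial barcodes 49 (0.577%) were higher and 132 (1.55%) lower of 8497. Antigen presentation and interferon genes filled much of the lower side. Of the 131 lower genes, 55 belonged to 6 lists of interferon, antigen and leukocyte adhesion genes, and 0 of the 65 higher ones did. Among the 8100 measured genes these lists held 20 class I, 3 class II, 15 GTPase and 25 type I interferon genes. They also held 18 receptor and signal genes and 12 adhesion and chemokine genes. With so few listed genes, 0 of 65 says little. The lists were chosen with earlier results of these data known. Among genes that reached 50 CPM and 30 UMIs in the library where they were higher, and were found in no fewer than 5% of its capillary barcodes, the 12 lowest ratios were those of H2-Q7, Igtp, Iigp1, H2-Q6, Dbp, Gbp3, Cxcl9, Tgtp2, Gbp4, Gbp2, Bst2 and Tap1. Among the same genes the 12 highest were those of Cyp26b1, Ocel1, Fbln2, Trim37, Ccdc85b, Fmo2, Igfbp3, Nr4a1, Alpl, Bmp6, Lrrc3b and Cirbp. The plots of all genes and of these 24 genes show that Cyp26b1 stands far from the rest of the higher side.

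**Figure D2:**
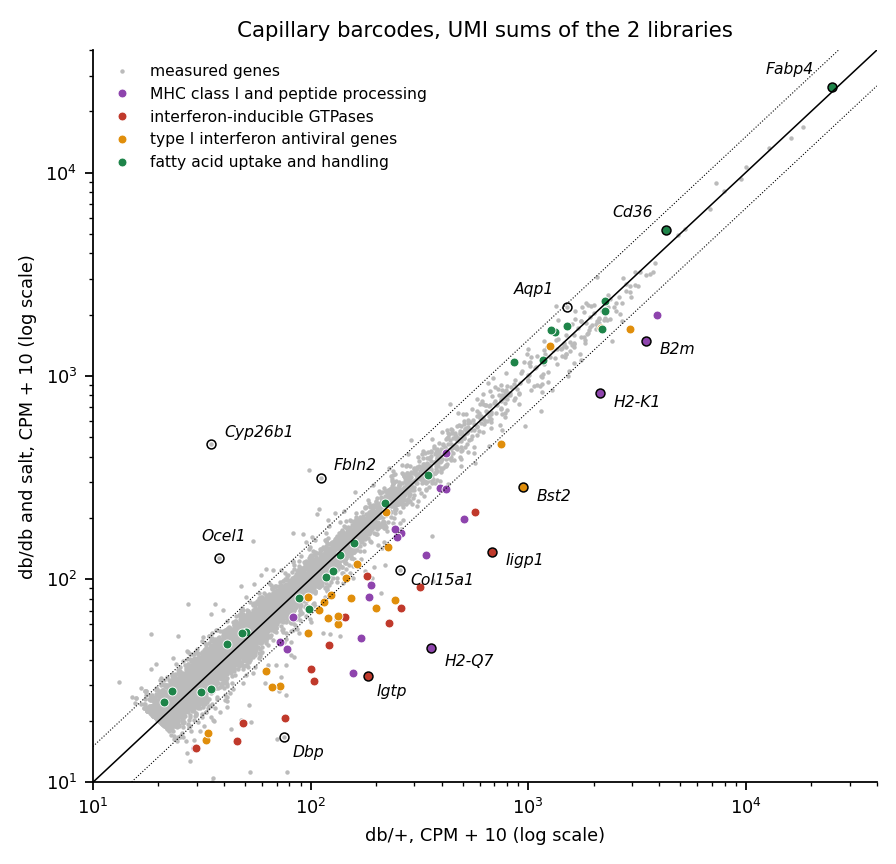
Each point is 1 of 8100 measured genes, with its level in capillary barcodes of db/db and salt (vertical) and of db/+ (horizontal), as CPM plus 10 on log scales; the solid line marks equal levels and the dotted lines 1.5-fold. The 15 measured interferon-inducible GTPases (red) all lie below the lower dotted line, while the 25 measured fatty acid genes (green) lie between the dotted lines.

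**Figure D3:**
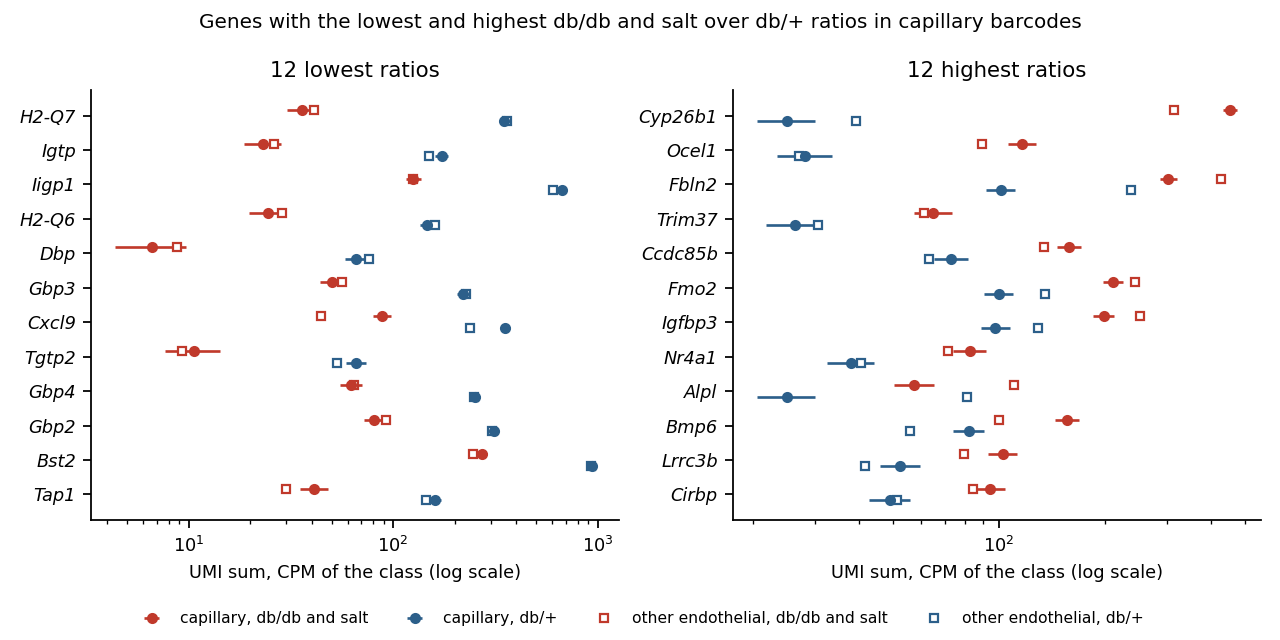
Levels of the 12 genes with the lowest and the 12 with the highest db/db and salt over db/+ ratio in capillary barcodes, among genes past the minimum level and share of barcodes, as CPM on log scales; filled circles with exact Poisson 95% intervals are capillary barcodes and open squares other endothelial barcodes, red for db/db and salt and blue for db/+. Cyp26b1 stands at 453 CPM in db/db and salt and 25 CPM in db/+, and H2-Q7 at 35.8 and 348 CPM.

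Genes of antigen presentation by MHC class I were lower in db/db and salt as a group. All 20 listed genes were measured, 15 were lower and 0 higher, and their median log2 ratio was -0.99, against -1.06 in other endothelial barcodes. H2-Q7, a class I gene outside the classical set (ENSMUSG00000060550), had 35.8 CPM (30.2 to 42.1, from 145 UMIs) in db/db and salt and 348 CPM (331 to 366, from 1564 UMIs) in db/+. H2-Q6, at 24.4 and 147 CPM, is a near-identical neighbour of H2-Q7 on chromosome 17, so the split of reads between them is uncertain. The classical heavy chain gene H2-K1 had 810 CPM (782 to 838) in db/db and salt and 2124 CPM (2081 to 2167) in db/+, and H2-D1 had 1978 and 3916 CPM. B2m, the light chain of all class I molecules, had 1475 CPM (1438 to 1513) and 3464 CPM (3410 to 3519). Along the path to the cell surface, the immunoproteasome subunits Psmb8 (187 and 497 CPM) and Psmb9 (121 and 328 CPM), the peptide transporter subunits Tap1 (41.2 and 160 CPM) and Tap2 (83.4 and 180 CPM), and Nlrc5, the activator of class I genes (4.69 and 19.4 CPM), all stood lower in db/db and salt. The chaperone Calr, which also serves other proteins, had 405 CPM in db/db and salt and 408 CPM in db/+.

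The GTPases that interferons induce were lower still. These proteins gather on the membranes around microbes inside cells. Of 16 listed genes 15 were measured, all 15 were lower, and the median log2 ratio was -1.53, against -1.51 in other endothelial barcodes. Iigp1, an IRG protein that acts on the vacuoles of parasites, had 126 CPM (115 to 137, from 510 UMIs) in db/db and salt and 672 CPM (648 to 696, from 3016 UMIs) in db/+. Igtp had 23.2 CPM (18.7 to 28.4) and 173 CPM (161 to 186), Irgm2 25.9 and 90.7 CPM, and Irgm1 55.0 and 133 CPM. Of the GBP family, Gbp2 had 80.9 CPM in db/db and salt and 310 CPM in db/+, Gbp3 50.6 and 219 CPM, Gbp4 62.4 and 251 CPM, and Gbp7 204 and 560 CPM. Gbp9 had the smallest change of the 15, at 93.5 and 172 CPM, a log2 ratio of -0.82. Tgtp2, with 10.6 and 66.0 CPM, shares its sequence closely with Tgtp1, and the annotated spans of Igtp and Irgm2 overlap, as do those of Gbp4, Gbp8 and Gbp9, so single values of these pairs are less certain than the family's.

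Promoters of these genes are shown because the GTPases moved together and hold the motifs that interferon signals use. The interferon-stimulated response element (ISRE), bound by STAT and IRF factors, was searched on both strands as GAAA, any 2 bases and GAAA, and the gamma-activated site (GAS), bound by pairs of STAT factors, as TTCNNNGAA, which reads the same on both strands. The window was 250 bases before to 50 after each gene's start in RefSeq, build GRCm38.p6. The 110 bases before the start of 4 of the genes are given from 5′ to 3′ on the gene's strand, with ISRE and GAS matches in capitals, for Igtp (chr11:58199446-58199555, plus strand), Irgm2 (chr11:58214867-58214976, plus strand), Tgtp2 (chr11:49064213-49064322, minus strand) and Gbp3 (chr3:142559934-142560043, plus strand).
Igtp: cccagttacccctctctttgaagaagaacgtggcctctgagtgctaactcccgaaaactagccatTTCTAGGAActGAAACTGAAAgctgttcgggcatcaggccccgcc
Irgm2: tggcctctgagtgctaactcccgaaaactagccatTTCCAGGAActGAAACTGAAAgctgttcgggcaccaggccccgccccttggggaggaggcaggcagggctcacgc
Tgtp2: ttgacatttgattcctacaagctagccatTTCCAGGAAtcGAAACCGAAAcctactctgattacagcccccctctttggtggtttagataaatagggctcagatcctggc
Gbp3: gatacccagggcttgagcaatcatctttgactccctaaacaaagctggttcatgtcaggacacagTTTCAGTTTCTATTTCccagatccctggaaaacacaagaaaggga

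In Igtp, Irgm2 and Tgtp2 the GAS began 11 bases before the ISRE, at 45 and 34, 75 and 64, and 81 and 70 bases before the start. That spacing was found in 5 of 27025 genes (0.0185%) and in 4 of the 10 measured GTPase genes with a promoter in the table, and these 4 are among the 5. The spacing counted is the one these promoters hold, so the counts describe them and are no test. Around both motifs the Igtp and Irgm2 stretches share a long run of nearly identical bases, so they are not separate cases. Gbp3 held a pair of overlapping ISRE matches on the other strand and no GAS in the stretch shown. An ISRE match was found in 9 of these 10 genes, in 4 of 17 class I genes and in 11 of 19 type I interferon genes, against 3.99% of all 27025 genes. Of the lower genes with a promoter in the table, 31 of 98 (31.6%) held an ISRE, against 252 of 6416 measured genes (3.93%) and 3 of 43 higher genes. Since 55 of the 131 lower genes come from the interferon, antigen and adhesion lists, this share is not independent of the list counts. A match describes the letters in this window and is no evidence of binding.

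Antiviral genes of the type I interferon response were also lower, with a wider range. Of 30 listed genes 25 were measured, 17 were lower, 0 higher, and the median log2 ratio was -0.82, against -0.69 in other endothelial barcodes. Bst2, which tethers budding virus, had 272 CPM (256 to 289) in db/db and salt and 941 CPM (913 to 970) in db/+. Isg15, a ubiquitin-like modifier, had 68.8 and 234 CPM, and Ifit2, which binds foreign RNA, 61.7 and 190 CPM. Rsad2 (viperin) had 452 CPM (431 to 473) and 740 CPM (715 to 766), and 1 barcode held 7.02% of its db/+ UMIs. Ifitm3 had 1697 and 2915 CPM, while its neighbour Ifitm2 had 1384 CPM (1348 to 1420) in db/db and salt and 1252 CPM (1219 to 1285) in db/+. Ifi27 had 203 and 213 CPM, with overlapping intervals.

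The receptors and signal factors above these genes differed less. All 18 listed were measured, 3 were lower and 0 higher, and the median was -0.10, while 1.62% of all measured genes were lower and 0.802% higher. Stat2 and Irf7, which interferons themselves induce, were among the lower ones, Stat2 with 51.5 CPM in db/db and salt and 90.2 CPM in db/+ and Irf7 with 53.5 and 121 CPM. The receptor gene Ifngr1, chosen after its values were seen, had 303 and 309 CPM. Of 12 measured adhesion and chemokine genes 4 were lower. Cxcl9, which attracts T cells through Cxcr3, had 88.3 CPM (79.4 to 97.9) and 354 CPM (337 to 372). Vcam1, a ligand for leukocyte integrins, had 10.4 and 37.9 CPM, and Cxcl16 32.1 and 71.3 CPM. Cxcl10 had 5 UMIs in db/db and salt and 304 in db/+, where 248 came from 1 barcode. Its log2 ratio of -2.79 rests on that barcode, and it was -0.46 with barcodes thinned to 1500 UMIs.

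MHC class II genes were sparse in capillary barcodes and unevenly held. In db/db and salt, 6 of 765 barcodes had a UMI of Cd74, H2-Aa, H2-Ab1 or H2-Eb1, and 2 barcodes held 204 of the 210 UMIs. Those 2 barcodes also carried 14 UMIs each of leukocyte markers, and without them the class II sum was 1.49 CPM, against 51.8 CPM with them. In db/+, 82 of 869 barcodes had a class II UMI, 28 had at least 3, and the sum was 82.2 CPM, or 61.8 CPM without its top 2 barcodes. Leukocyte markers summed to 28.6 CPM (116 UMIs, 4 of 10 markers at 0) in db/db and salt and 2.90 CPM (13 UMIs, 6 of 10 at 0) in db/+. Without barcodes of 3 or more leukocyte marker UMIs, an alternative chosen after seeing the data, 65 genes were higher and 131 lower between the libraries, and the GTPase median was -1.53.

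The interferon difference was not confined to a few barcodes, but for the GTPases it was uneven. The plot of UMIs per barcode shows it at a depth of 1500 UMIs, which 743 capillary barcodes of db/db and salt and 835 of db/+ reached. The class I genes summed to a median of 9 UMIs per barcode (quartiles 7 and 12) in db/db and salt and 17 (11 and 28) in db/+. The GTPases had a mean of 1.30 and 4.39 UMIs and a median of 1 and 2. They were at 0 in 39.7% of the barcodes of db/db and salt (36.2 to 43.3%) and 20.1% of those of db/+ (17.5 to 23%), and at least 3 of the genes were found in 11.7% and 41.9%. The db/+ distribution had a long right tail, with a 90th percentile of 12 UMIs against 3 in db/db and salt. Iigp1 was found in 13.3% (11 to 16.0%) and 38.1% (34.8 to 41.5%) of capillary barcodes and in 2.06 and 7.92% of barcodes with fibroblast markers. Unthinned, the Iigp1 shares were 26.9 and 53.9%. In other endothelial barcodes the class I medians were also 9 and 17 UMIs.

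**Figure D4:**
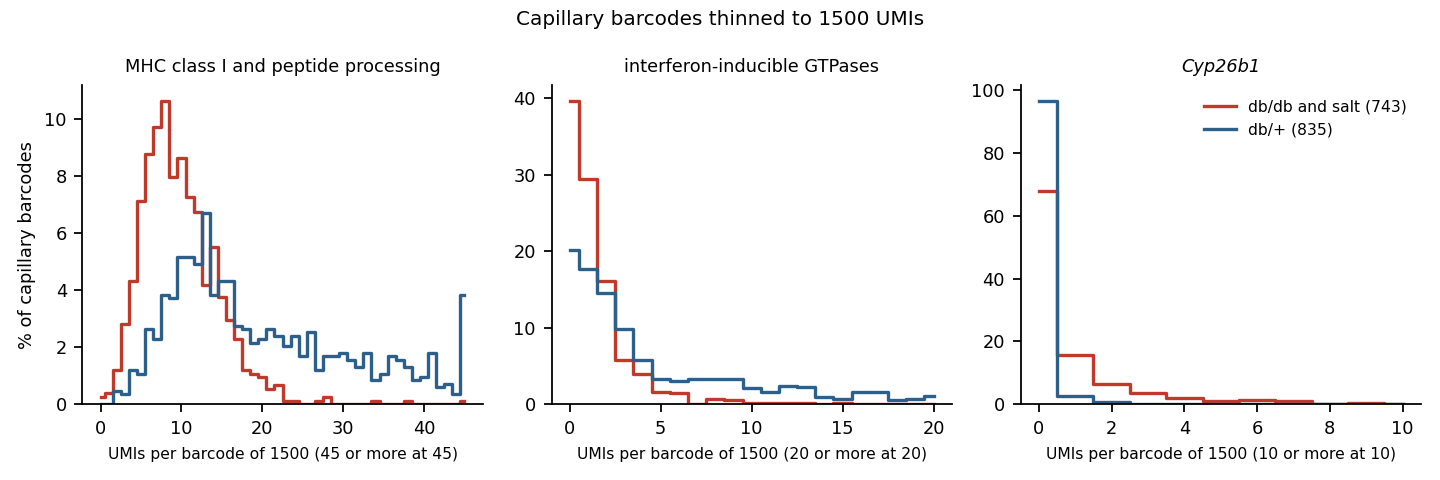
Share of capillary barcodes (vertical, %) with a given number of UMIs (horizontal) after thinning to 1500 UMIs per barcode, for summed MHC class I genes, summed interferon-inducible GTPases and Cyp26b1, in db/db and salt (red, 743 barcodes) and db/+ (blue, 835 barcodes). For class I and the GTPases the db/+ curve reaches further right, with medians of 17 against 9 UMIs for class I, and for Cyp26b1 the db/db and salt curve does.

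Cyp26b1, the enzyme that breaks down retinoic acid, had the highest ratio of the named genes. It lies on chromosome 6 (84571414 to 84593908, minus strand, GENCODE M21 on GRCm38; ENSMUSG00000063415) and had 453 CPM (432 to 474, from 1836 UMIs) in db/db and salt and 25 CPM (20.5 to 30.0, from 112 UMIs) in db/+, an 18.1-fold ratio of CPM and a log2 ratio of 3.73. In other endothelial barcodes it had 314 and 39.3 CPM, a log2 ratio of 2.72. At 1500 UMIs per barcode it was found in 32.0% (28.7 to 35.5%) of capillary barcodes in db/db and salt and in 3.35% (2.24 to 4.81%) in db/+. Barcodes that had it held 2.30 and 1.25 UMIs on average. The share was 24.2 and 4.02% in other endothelial barcodes and 1.89 and 0.581% in barcodes with fibroblast markers, whose median depths before thinning were 11993 and 9635.5 UMIs. Unthinned, 47.5 and 7.48% of capillary barcodes had a UMI of it, and no barcode held more than 1.91% of its UMIs in db/db and salt.

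The list of retinoic acid handling holds 19 genes, Cyp26b1 included. Of these 8 were measured, 3 were higher with Cyp26b1 among them, 0 were lower, and the median log2 ratio was 0.26. For all measured genes the shares were 0.802% higher and 1.62% lower, and the median was 0.05. Dhrs3, which turns retinal back into retinol, had 340 CPM (322 to 359) in db/db and salt and 219 CPM (206 to 233) in db/+, a log2 ratio of 0.61. The receptor gene Rarg had 111 CPM (101 to 121) in db/db and salt and 88.7 CPM (80.2 to 97.8) in db/+, and Rara 20.0 and 24.3 CPM. The other degrading enzymes, Cyp26a1 and Cyp26c1, had 0 UMIs in both capillary sums, and the synthesising enzyme Aldh1a2 had 0 UMIs in db/db and salt and 1 UMI in db/+.

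Within the db/db and salt library, capillary barcodes with a Cyp26b1 UMI at 1500 UMIs (238) were set beside those without (505), as a description with intervals for counting error. Aqp1 stood at 3165 CPM in barcodes with Cyp26b1 and 1712 CPM in those without, a log2 ratio of 0.88. Dhrs3 stood at 490 and 314 CPM, Lpl at 2137 and 1632 CPM, and Timp4 at 882 and 653 CPM. Cxcl12, a chemokine gene, was lower in barcodes with Cyp26b1, at 1924 CPM against 2429 CPM. Bst2 stood at 238 CPM in barcodes with Cyp26b1 and 325 CPM in those without, a log2 ratio of -0.43. The pericyte gene Rgs5 stood at 182 and 103 CPM, a log2 ratio of 0.77, and for both genes the counting interval of the CPM ratio left out equal levels. For Fabp4, Cd36, H2-K1 and Iigp1 the interval of the log2 ratio included 0. The db/+ library had 28 barcodes with Cyp26b1 and 807 without.

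The remaining genes with high ratios had varied roles. Fbln2 and Alpl, described below, were the 2 higher genes among the listed arterial genes outside the rule. Of that list 10 were measured, 0 were lower and 8 had a log2 ratio above 0. Its median was 0.39, against 0.26 in other endothelial barcodes and 0.05 over all measured genes, of which 0.802% were higher. Ocel1, which encodes a protein with an occludin-like domain, had 116 CPM (106 to 127) in db/db and salt and 28.1 CPM (23.4 to 33.4) in db/+, a log2 ratio of 1.73. Fbln2, a matrix protein of basement membranes and elastic fibres, had 303 CPM (286 to 320) and 101 CPM (92.1 to 111). Fbln2 was also abundant in barcodes with fibroblast markers, at 1848 and 1619 CPM. The fibroblast gene Dcn, at 17863 and 16282 CPM there, had 60.7 and 29.6 CPM in capillary barcodes. The 9 fibroblast markers outside the rule summed to 322 CPM in db/db and salt and 260 CPM in db/+. Igfbp3, which binds insulin-like growth factors, had 198 CPM (185 to 212) and 97.6 CPM (88.7 to 107). Bmp6, a growth factor that endothelium gives to its neighbours, had 156 and 82.0 CPM, Alpl, the tissue-nonspecific alkaline phosphatase, 57.5 and 25 CPM, and Fmo2, a flavin monooxygenase, 211 and 99.8 CPM. Cirbp, an RNA-binding protein induced by cold, had 94.2 and 49.0 CPM.

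Genes of fatty acid uptake, the hallmark of heart capillaries, stayed within 1.5-fold. Of 30 listed genes 25 were measured, 0 were higher and 0 lower, and the median log2 ratio of 0.05 equalled that of all measured genes. Since 0.802% of all 8100 measured genes were higher and 1.62% lower, a count of 0 in a list of this size says little. Aqp7 of this list is also a gene of the rule. Tcf15, a transcription factor that with Meox2 drives fatty acid uptake, had 1159 CPM (1126 to 1192) in db/db and salt and 847 CPM (820 to 874) in db/+, a log2 ratio of 0.45. Lpl, lipoprotein lipase, had 1672 CPM (1632 to 1712) and 1267 CPM (1234 to 1301), and Cd36 had 5193 CPM (5123 to 5264) and 4281 CPM (4221 to 4342). Fabp5 went the other way, with 1695 CPM (1655 to 1736) in db/db and salt and 2175 CPM (2132 to 2218) in db/+. Plin2, a coat protein of lipid droplets, had 61.4 CPM (54.0 to 69.5) and 88.0 CPM (79.5 to 97.1). Summed per barcode at 1500 UMIs, the list had a median of 70 UMIs in db/db and salt and 65 in db/+. Fatty acid oxidation (15 measured) and the respiratory chain (24 measured) had 0 higher and 0 lower genes, which at the same shares also says little. Glycolysis had 1 lower gene of 13, Pfkfb3, the activator of phosphofructokinase, with 12.1 and 28.3 CPM.

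Among genes of vessel structure and tone, few passed 1.5-fold, as among all 8100 measured genes, of which 0.802% were higher and 1.62% lower. Counts of 0 in lists of this size therefore say little. Aqp1, the water channel of capillary endothelium, had 2166 CPM (2121 to 2212) in db/db and salt and 1501 CPM (1465 to 1537) in db/+, a log2 ratio of 0.53, under 1.5-fold, and it led the 16 measured genes of salt and water handling, of which 0 passed. Cavin2, a coat protein of caveolae, had 2206 CPM (2160 to 2252) and 1329 CPM (1296 to 1364), while Cav1 had 2081 and 2245 CPM. The endothelin receptor gene Ednrb had 186 CPM (173 to 199) and 111 CPM (101 to 121). Col15a1, a collagen next to basement membranes, had 101 CPM (91.8 to 112) in db/db and salt and 247 CPM (232 to 262) in db/+, the 1 lower gene of 15 in its list. Of the junction list 15 were measured and 0 passed, with Cdh5, the cadherin of endothelial junctions, at 1899 and 1629 CPM. The VEGF and angiopoietin list had 18 measured genes and 0 passed, with the receptors Kdr at 2075 and 1637 CPM and Flt1 at 1634 and 1312 CPM. In the insulin and IGF list Igfbp3 and Igfbp4 were the 2 higher genes of 14, and Igfbp4 (21.7 and 10.2 CPM) turned to a log2 ratio of -0.27 with barcodes thinned to 1500 UMIs.

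**Figure D5:**
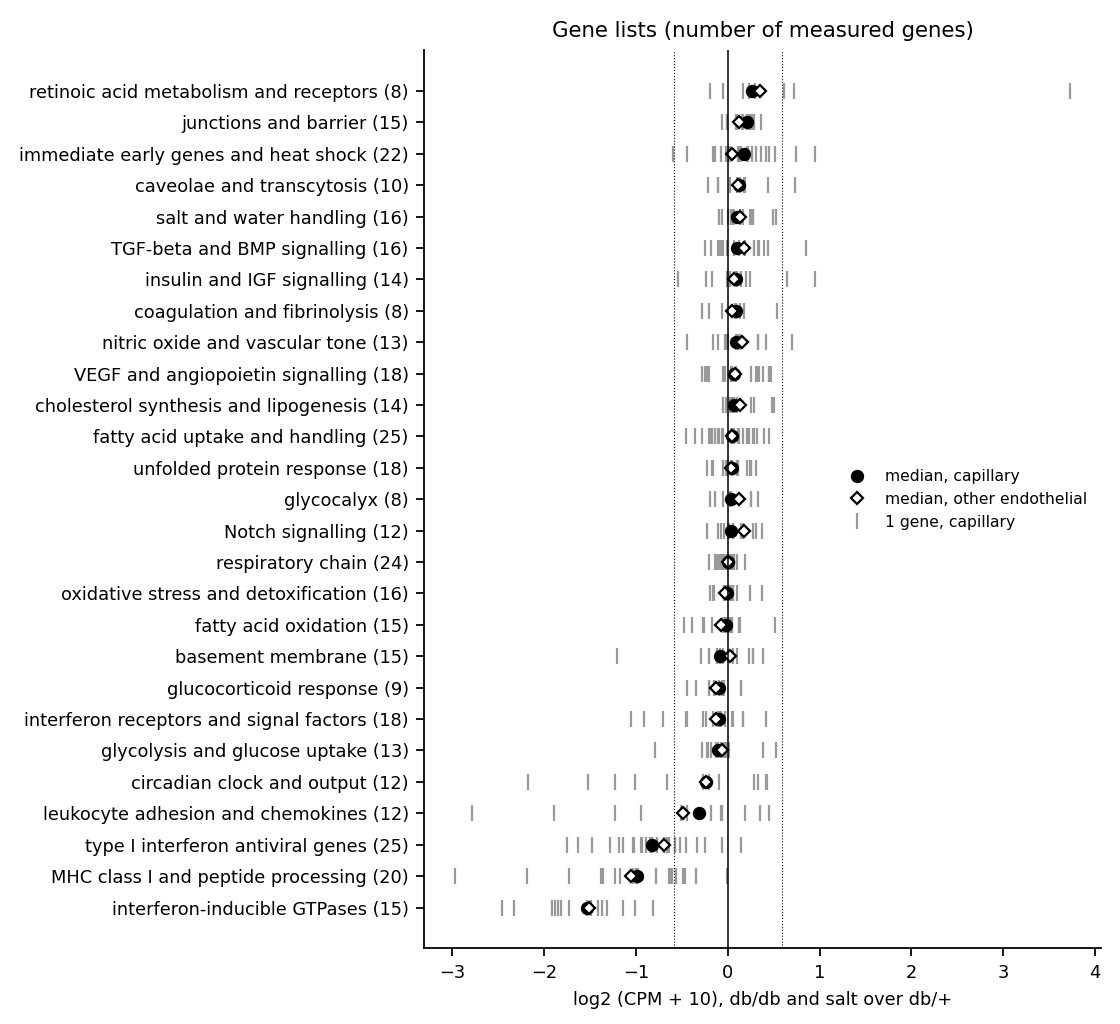
Log2 ratios of db/db and salt over db/+ for pathway lists with at least 5 measured genes; grey ticks are single genes in capillary barcodes, black circles their medians, and open diamonds the medians in other endothelial barcodes. Dotted lines mark 1.5-fold; the GTPase, class I and type I interferon medians of -1.53, -0.99 and -0.82 lie past it and the other medians lie within it.

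Some clock genes were lower in db/db and salt. Of 12 measured clock genes 5 were lower, 0 higher and 7 between, 4 had a log2 ratio above 0, and the median was -0.24. Over all 8100 measured genes 1.62% were lower and 0.802% higher, and the median was 0.05. Dbp, a transcription factor that follows the clock, had 6.66 CPM (4.39 to 9.69, from 27 UMIs) in db/db and salt and 65.5 CPM (58.2 to 73.4, from 294 UMIs) in db/+. Nr1d1 and Nr1d2, the repressors of the clock's inner loop, had 17 and 67.5 CPM, and 20.7 and 51.9 CPM, and Tef 8.38 and 33.0 CPM. Dbp was also lower in barcodes with fibroblast markers, at 19.5 and 119 CPM. Clock genes follow the time of day, the labels do not state when hearts were taken, and its part was not tested.

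Genes that respond to digestion were read beside these values. Of 22 measured immediate early and heat shock genes 2 were higher, Nr4a1 (82.6 and 37.9 CPM) and Hspa1b (258 and 150 CPM), and 1 was lower, Hspa8 (841 and 1280 CPM). Beside these counts, 0.802% of all measured genes were higher and 1.62% lower. Their sum per barcode at 1500 UMIs had a median of 13 UMIs in both libraries. Cycling markers summed to 107 CPM in db/db and salt and 252 CPM in db/+, and were at 0 in 98.3% and 96.6% of capillary barcodes at 1500 UMIs. Erythroid markers summed to 2235 and 3408 CPM, and cardiomyocyte markers to 92.2 and 108 CPM. The part of these in the ratios was not tested.

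Set beside the other endothelial barcodes of the same libraries, few genes stood higher in capillary barcodes, and the rule itself fixes part of this contrast, so it is a description. Of 8326 genes measured over the 4 sums, 7 (0.0841%) were higher and 206 (2.47%) lower past 1.5-fold in both libraries. By library, 22 (0.264%) were higher and 258 (3.1%) lower in db/db and salt, and 19 (0.228%) and 245 (2.94%) in db/+. The 7 included Car4 and Rgcc of the rule and, among the named genes, Adh1, an alcohol and retinol dehydrogenase, at 71.0 CPM in capillary and 42.4 CPM in other endothelial barcodes of db/db and salt and 73.5 and 41.9 CPM in those of db/+, and Aqp1, at 2166 and 1404 CPM, and 1501 and 975 CPM. Rsad2 came close, with 452 and 298 CPM in capillary and other endothelial barcodes of db/db and salt, and 740 and 446 CPM in those of db/+, a log2 ratio of 0.58 and 0.72. Slc28a2, a nucleoside transporter gene, had 206 and 126 CPM, and 191 and 124 CPM, and passed 1.5-fold in the db/db and salt library but not in the db/+ library. Cxcl9 likewise passed in db/db and salt but not in db/+, with log2 ratios of 0.85 and 0.55. On the lower side stood genes of mural and arterial cells. Rgs5, a pericyte gene, had 165 and 1282 CPM in db/db and salt, and 166 and 1344 CPM in db/+. The smooth muscle genes Acta2 and Myh11, the arterial connexin gene Gja4 and the matrix gene Fbln5 were lower as well. Without barcodes of 3 or more mural UMIs the counts were 4 higher and 113 lower, and against other endothelial barcodes with at least 3 capillary markers they were 4 and 147.

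Differences between the libraries were read again within strata of the capillary barcodes. In capillary barcodes with 3, 4 and 5 markers the GTPase median was -1.76, -1.47 and -1.52, and the class I median -1.16, -1.04 and -0.93. The type I interferon median was -0.60, -0.80 and -0.85 in these strata. It was -0.56, within 1.5-fold, in capillary barcodes below their median depth and -0.95 in those above it. Cyp26b1 had log2 ratios of 3.15, 4.50 and 3.63 with 3, 4 and 5 markers. Capillary barcodes below and above their median depth gave 3.75 and 3.73 for Cyp26b1 and -1.56 and -1.51 for the GTPases. The barcodes just outside the rule gave like values, with 4.13 for Cyp26b1 at 2 markers (73 and 93 barcodes) and 3.57 at a single UMI of an excluded gene (373 and 493 barcodes). Fbln2 had log2 ratios of 1.05, 1.71 and 1.51 with 3, 4 and 5 markers, and Aqp1 1.01, 0.38 and 0.48.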

How the data were processed

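Counts were those of 2 deposited 10x Genomics 3' v3.1 libraries of mouse heart cells, depleted of cardiomyocytes and CD45-positive cells, 1 from db/db mice given salt and 1 from db/+ mice. The authors made these UMI counts per gene and barcode with Cell Ranger 6.0.2, per the file headers, and the submitters' processing notes name Cell Ranger, Seurat and GRCm38/mm10. The library totals were 40974634 UMIs in db/db and salt and 44935235 in db/+. Barcodes were chosen by the rule given above, and UMIs were summed per library and class (Python 3.11.15, numpy 2.4.6, scipy 1.17.1, scanpy 1.11.5). CPM, log2 ratios with 10 CPM added, exact Poisson and Clopper-Pearson 95% intervals and thinning to 1500 UMIs were computed from these counts. Each group being a single library, comparisons are by size alone, at 1.5-fold, without a test. The code was checked on simulated data. TMM factors came from edgeR 4.0.16 in R 4.3.3. Coordinates came from GENCODE M21 for 30934 of 31053 genes and promoters from RefSeq. Named genes were the 12 highest and 12 lowest ratios among genes whose higher library reached 50 CPM and 30 UMIs, with a UMI in at least 5% of its capillary barcodes and at no less than 10% of the level in non-endothelial barcodes, plus up to 4 genes per list, the genes of the rule and the members of lists described first. Ribosomal, mitochondrial, haemoglobin, numbered and duplicated symbols were left out. The members and gene lists were chosen with earlier results of these data known. Listed Mx2, Cxcl11 and Cemip2 were not matched to a symbol and were not used here.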

Additional observations from a re-analysis of the deposited data

Results flagged for a closer look

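In 4 named genes the ratio of capillary over other endothelial barcodes lay above 0 in the db/db and salt library and below 0 in the db/+ library with counting intervals that left out 0 in both. More named genes had opposite signs with an interval that included 0. The difference was not tested, since each group is a single library. Cyp26b1 had a log2 ratio of 0.51 in db/db and salt and -0.50 in db/+. The class II genes made up the rest: Cd74 had 0.94 and -2.65, H2-Aa 0.97 and -1.61, and H2-Ab1 0.27 and -1.85, in db/db and salt and in db/+ in that order. In db/db and salt, 204 of the 210 class II UMIs of capillary barcodes came from 2 barcodes that also held leukocyte marker UMIs, so these 3 values rest on them.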

How the results depend on the processing

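In all, 306 results were read under up to 18 alternatives. The first group held the capillary share, the counts of higher and lower genes, and 4 medians. These were the medians of the class I, GTPase, type I interferon and fatty acid lists. In this group 28 values moved. The 65 higher genes became 211 with barcodes thinned to 1500 UMIs, 221 with 1 CPM and 17 with 50 CPM added, 27 at a mean of at least 50 CPM, and 33 with median-of-ratios factors. The 131 lower genes became 198, 62 and 72 with 1 CPM, 50 CPM and the mean of 50 CPM. The 7 genes higher in capillary than in other endothelial barcodes became 11 at 4 markers, at 20% mitochondrial UMIs and without mitochondrial and haemoglobin genes in the totals, 21 when thinned, 144 with the excluded genes allowed, 17 with TMM and with median-of-ratios factors, 15 with the mean of per-barcode CPM, 28 with 1 CPM, and 4 with 50 CPM. The 206 lower ones became 460 with the excluded genes allowed, 78 with 50 CPM, 57 at a mean of 50 CPM and 336 with no filter. Chosen after seeing the data, leaving out barcodes with mural UMIs gave 4 and 113, and other endothelial barcodes with at least 3 markers gave 4 higher. The class I median moved to -0.67 with 50 CPM, and the GTPase median to -1.92 with 1 CPM and -0.94 with 50 CPM. The other 297 results were ratios of single genes and the remaining medians. Among their values 5068 stayed, 274 moved and 1 turned round, Igfbp4 at -0.27 when thinned. The cause was not tested. No paired analysis was possible because each group holds 1 library, and no replicate could be left out for the same reason. Depth limits the precision of genes near 10 CPM most.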
